A study of Mus musculus with 23 samples.

Results

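The genes described here fold proteins in the endoplasmic reticulum (ER), sense unfolded protein there, and pass misfolded protein to degradation. They were chosen by name, as a list of 35 genes in 6 roles, and kept where a gene reached 1 CPM (CPM is the count scaled to a common library size) in at least 4 libraries. Of the 35, FKBP2 was listed without values and is not analysed here, and the other 34 were kept, among 11633 genes tested in all. No member lay near the filter, since the lowest value of any member in any of the 23 libraries was 10.8 CPM, for DERL3 in activated library 1.

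The study profiled tumors of IL6Myc transgenic mice, a model of multiple myeloma, by RNA sequencing. The labels call the tumor cells malignant plasma cells, and place 7 libraries in the mesenteric lymph node (MLN) and 7 in the spleen of untreated animals. Mice 1610, 1611, 1613, 1614, 1615 and 1616 gave both tumors, while mouse 1609 is represented by its MLN and mouse 1612 by its spleen alone. The controls were splenic B cells of wild-type (WT) Balb/c mice, either quiescent and untreated (4 libraries) or activated for 16 hours by lipopolysaccharide, or LPS, a bacterial cell wall component, at 1 µg/ml (5 libraries). All samples were enriched for B cells with magnetic beads that remove other cells. The promoters that drive the transgenes and the animals' ages and sexes do not appear in the labels. Nor do the labels say whether each control library came from its own animal, so the spread between control libraries may be technical. The p-values against controls rest on this spread together with that between tumor mice. As every cultured sample received LPS, its effect and that of culture cannot be told apart. In bulk libraries such as these, fewer cells of a type and less RNA per cell cannot be told apart either.

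Proteins that are secreted or placed in membranes fold in the ER, where chaperones of the Hsp70 and Hsp90 families, lectin chaperones and disulfide isomerases attend them. When unfolded protein builds up, the sensors IRE1 (gene ERN1), ATF6 and PERK (gene EIF2AK3) start the unfolded protein response: IRE1 splices the mRNA of the transcription factor XBP1, ATF6 is cut to release a transcription factor, and PERK phosphorylates eIF2α and so favours translation of ATF4. Proteins that do not fold are drawn back through the ER membrane and destroyed by the proteasome, a route called ER-associated degradation (ERAD). Plasma cells secrete antibody in bulk, need XBP1 for it, and are known for a large ER.

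Members of this group are known to share promoter elements that ATF6 and XBP1 act on. RefSeq's promoter table for the mouse build GRCm38.p6 holds 250 bases before to 50 bases after each start, and 30 of the 35 listed genes had an entry in it. The ER stress element ERSE (letters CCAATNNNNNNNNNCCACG, searched on both strands) stood in 10 of these 30 (33.3%), namely CALR, CANX, CRELD2, DERL3, DNAJC3, ERO1B, HSP90B1, HSPA5, PDIA6 and SYVN1, against 37 of all 27025 genes in the table (0.137%). Without its last letter, which takes in every full match, it stood in 14 (46.7%) against 0.429% of genes. The related ERSE-II (ATTGG and CCACG set 1 base apart) stood in DNAJB11 and HERPUD1 (6.67% against 0.0444%), and the element UPRE (TGACGTGG) in UBE2J1 and VCP (6.67% against 0.714%). A match describes letters only. The stretches below show the matches in 8 genes whose levels are described further on, with the element in capitals; those read on the other strand begin with CGTGG. HSP90B1 carried the ERSE on each strand, and HERPUD1 shows ERSE-II. Coordinates are GRCm38.p6, while the expression table was made on GRCm39, so the 2 were joined by gene symbol alone.
HSPA5, chr2:34772005-34772063, plus strand: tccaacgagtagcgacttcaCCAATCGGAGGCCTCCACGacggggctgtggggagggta
HSP90B1, chr10:86705513-86705676, minus strand: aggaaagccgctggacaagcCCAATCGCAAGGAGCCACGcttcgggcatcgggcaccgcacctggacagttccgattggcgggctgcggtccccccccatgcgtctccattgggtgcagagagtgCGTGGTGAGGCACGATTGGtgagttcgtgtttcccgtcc
CRELD2, chr15:88819500-88819558, plus strand: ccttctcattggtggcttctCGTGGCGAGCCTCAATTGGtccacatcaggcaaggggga
DERL3, chr10:75893222-75893280, plus strand: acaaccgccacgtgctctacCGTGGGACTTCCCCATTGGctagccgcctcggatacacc
CANX, chr11:50325780-50325838, minus strand: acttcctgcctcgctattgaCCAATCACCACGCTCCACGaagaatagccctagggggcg
CALR, chr8:84847055-84847113, minus strand: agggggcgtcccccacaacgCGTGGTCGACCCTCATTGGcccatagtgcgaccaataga
SYVN1, chr19:6046512-6046570, plus strand: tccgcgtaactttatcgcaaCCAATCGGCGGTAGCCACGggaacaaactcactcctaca
HERPUD1, chr8:94386357-94386407, plus strand: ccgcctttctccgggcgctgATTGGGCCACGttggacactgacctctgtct

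Levels are given in CPM scaled over the 23 libraries and are not compared between genes, since no value per transcript length was used. Library totals lay between 13328866 and 25045814 estimated counts. MYC, which the model's name carries, was at 311.8 to 2109 CPM in the 14 tumor libraries, 61.4 to 75.5 in quiescent and 212 to 231 in activated libraries. SDC1, a plasma cell surface marker, was at 8.83 to 473 CPM in tumors and 22.1 to 25.3 in quiescent cells, and the spleen tumors of mice 1610 and 1615 lay below the quiescent range. The immunoglobulin share of counts was under 2.23%, the quiescent minimum, in 4 tumor libraries (MLN of mouse 1611, spleen of 1610, 1612 and 1615). Each held 7415 to 9315 CPM of 6 summed B cell markers, against 141.5 to 5899.8 in the other 10 tumors and 11812 to 11979.8 in quiescent cells. Most markers of other cells were higher in tumors than in quiescent cells, with 6 of 6 macrophage, 5 of 5 neutrophil, 5 of 5 erythroid, 5 of 5 stromal and 5 of 6 T cell genes called, as were 3 of 6 plasma cell genes, while 6 of 6 B cell genes were lower. Of 4 exocrine pancreas genes 0 were higher and 2 lower, and their sum reached 131 CPM in 1 quiescent library. Against activated cells 6 of 6 plasma cell genes were higher and 3 of 6 B cell genes lower. Of all genes, 36.8% were higher and 31.9% lower against quiescent cells, and 36.1% and 27.0% against activated cells. Of the markers of other cells, ELANE, COL1A2, CPA1 and CPB1 were at 0 in every activated library. The summed macrophage markers were at 158 to 2445 CPM in tumors, 13.1 to 116 in quiescent and 8.89 to 21.1 in activated libraries. Their part in the results was not tested. Summed RNA of 3 Y-linked genes was at 348.4 to 364.1 CPM in quiescent and 0.504 to 0.912 CPM in activated libraries, so the sex of the animals and activation cannot be told apart; mice 1612, 1613 and 1614 had low and the other 5 tumor mice high Y-linked levels.

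Tumors held more RNA of most ER folding and degradation genes than quiescent B cells. Of the 34 genes, 28 rose and 0 fell in edgeR's quasi-likelihood test over 8 tumor mice and 4 quiescent libraries, where 36.8% of all genes tested were higher and 31.9% lower. That fit also held the activated libraries and took 1 estimate of the spread per gene over tumors and controls, though controls varied far less. What this does to the p-values was not tested. DESeq2 gave 31 and 0, and at an unadjusted p under 0.05 the counts were 28 and 0. The median log2 change of the 34 was 1.49, against 0.08 over all genes, and it was 0.98 without mouse 1616 and 0.77 in the 3 mice of low Y-linked level. With quantile normalization all genes split into 2816 higher and 4300 lower, and the members still lay 1.46 above the median of all genes (1.42 in the main scaling). The largest changes were those of DERL3 (4.13 ± 0.79, approximate SE), CRELD2 (3.44 ± 0.68) and SEL1L (3.23 ± 0.71). With the libraries of a mouse summed, every tumor mouse lay above every quiescent library in 18 genes, which held for 23.3% of all genes. Single tumor libraries of some of these 18 overlap the quiescent ones or lie below them. The spleen tumors of mice 1610 and 1615 lay below all quiescent libraries for 22 and 21 of the 34 genes, and above all for 9 and 10. These counts by library were not set against all genes. CALR, CANX, DERL2, SYVN1, EIF2AK3 and ERO1B did not pass. The counts were 31 and 0 with MLN tumors alone, 22 and 0 with spleen tumors alone, and 32 and 0 without the 4 libraries of low immunoglobulin share. In the same order all genes split into 4172 higher and 3415 lower, 3678 and 2513, and 4492 and 3544. With spleen tumors alone the calls of ATF6, DERL1, DNAJB9, EDEM3, HYOU1 and PDIA3 were lost.

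Against LPS-activated cells, 26 of the 34 genes were higher in tumors and 0 lower, over 8 tumor mice and 5 activated libraries in the same fit. Of all genes, 36.1% were higher and 27.0% lower. DESeq2 gave 27 and 0, and at an unadjusted p under 0.05 the counts were 27 and 0. The all-gene split was 2527 higher and 4134 lower with quantile normalization and 3734 and 3860 with immunoglobulin genes left out of the scaling, under which 1 and 3 members were lower. The median log2 change was 1.34, against 0.09 over all genes; it was 0.70 without mouse 1616, 0.55 in the mice of low Y-linked level and 0.25 with that level as a covariate. With the libraries of a mouse summed, 12 genes did not overlap between the groups, where 22.3% of all genes were higher without overlap. Single tumor libraries of some of these genes do overlap the activated ones or lie below them, as given below. These were the degradation genes EDEM1, EDEM2, EDEM3, OS9, SEL1L, SYVN1, DERL3 and UBE2J1, the sensors ERN1 and EIF2AK3, and the folding genes CRELD2 and PPIB. Genes that did not pass were CALR, CANX, PDIA3, HYOU1, ATF6, DERL1, DERL2 and VCP. Both comparisons share the tumor mice and are given side by side.

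The calls against activated cells changed with the mice taken and with the Y-linked level. Without mouse 1616 the counts were 23 higher and 3 lower (CANX, DERL1 and VCP), and without the low immunoglobulin libraries 28 and 0. Of all genes, 3963 were higher and 4233 lower in the first case, and 4026 and 3281 in the second. MLN tumors alone gave 27 and 0, spleen tumors alone 18 and 0. All genes split into 3804 higher and 3210 lower with MLN tumors, and 3443 and 2236 with spleen tumors. With spleen tumors alone the calls of DNAJB11, ERO1B, HERPUD1, HSPA5, MANF, PDIA6, SDF2L1 and SELENOS were lost. With the Y-linked level as a covariate 4 were higher (DERL3, EDEM2, EIF2AK3 and ERN1) and 2 lower (CANX and VCP). In that fit 3133 of the 11633 genes were higher and 2224 lower, so a smaller share of members than of all genes was higher. The 5 mice of high Y-linked level gave 27 and 0, while the 3 of low level gave 18 higher and 7 lower (ATF6, CALR, CANX, DERL1, DERL2, PDIA3 and VCP), splits that were chosen after seeing the data. All genes split into 4173 higher and 3109 lower in the mice of high level, and 3787 and 4100 in those of low level.

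**Figure D1:**
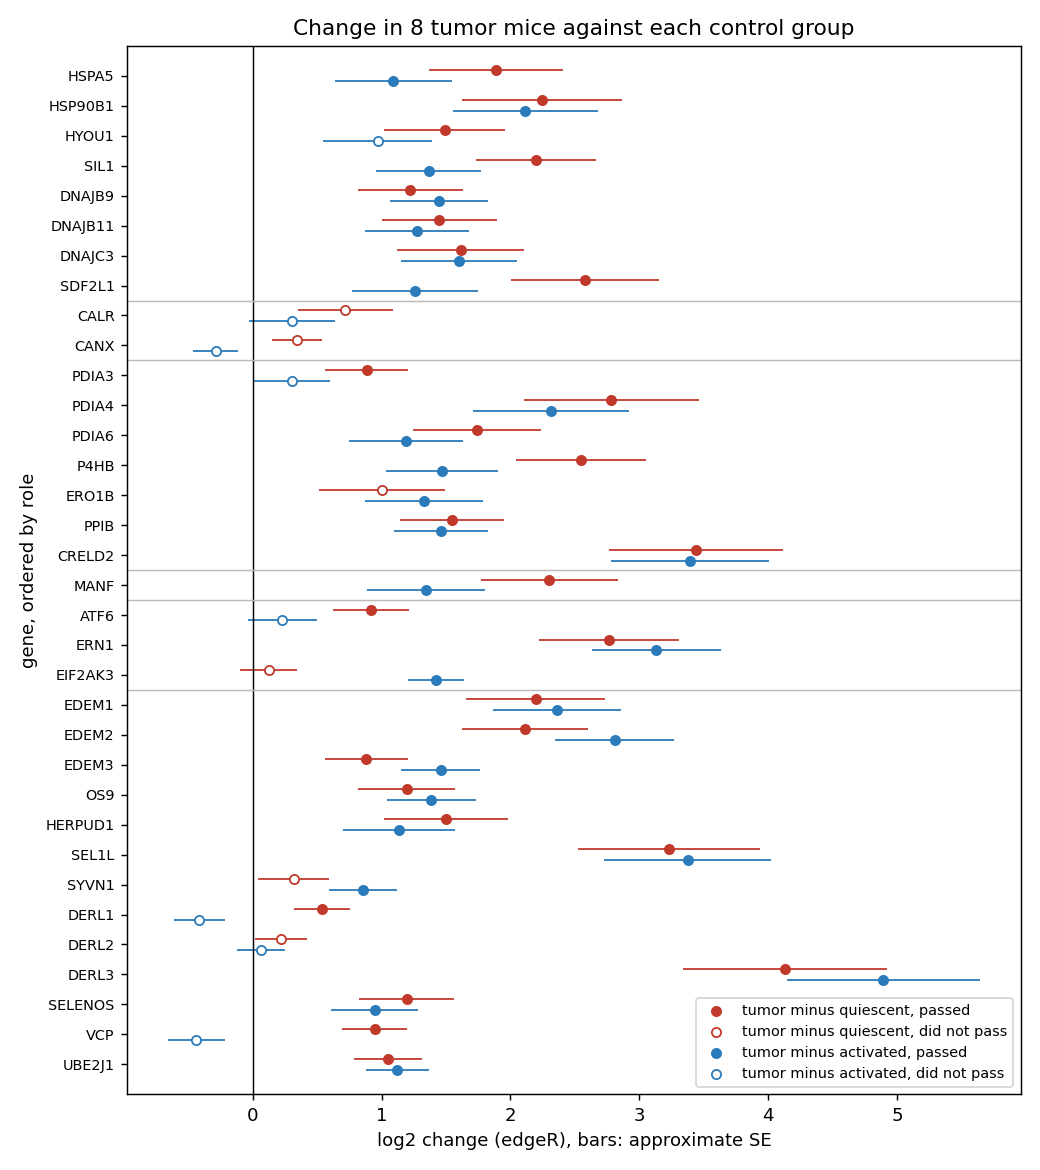
Log2 change of each of the 34 genes (rows, by role) in 8 tumor mice against 4 quiescent (red) and 5 activated libraries (blue), with bars of the approximate standard error; filled points passed edgeR at an adjusted p below 0.05. Against quiescent cells all points lie right of 0, and against activated cells CANX, DERL1 and VCP lie left of it.

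Activated cells differed from quiescent cells in both directions. In the fit with the tumors, 3 genes were higher (CANX, DERL1 and VCP) and EIF2AK3 was lower, where 25.4% of all genes were higher and 34.1% lower. At an unadjusted p under 0.05 the counts were 6 and 1, and DESeq2 gave 6 and 1. That fit shares 1 estimate of the spread with the tumors. When the 9 control libraries were fitted alone, an alternative added after seeing the data, 20 genes were higher and 7 lower (EDEM2, EDEM3, SYVN1, DERL3, ERN1, EIF2AK3 and ERO1B), with 36.5% and 38.9% of all genes tested. The groups did not overlap for 25 genes, 16 higher and 9 lower in activated cells (29.8% and 38.1% of all genes). Overlap was judged on the scaling of that fit; with the scaling over 23 libraries used for the values below, DNAJB9, EDEM1 and OS9 overlap narrowly, while HSP90B1, DNAJB11 and SELENOS are higher without overlap. The share of all counts that fell in the 34 genes was 0.761% to 0.802% in quiescent and 1.06% to 1.13% in activated libraries. In tumors it ran from 0.767% in the spleen of mouse 1615 to 6.40% in the spleen of mouse 1616.

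**Figure D2:**
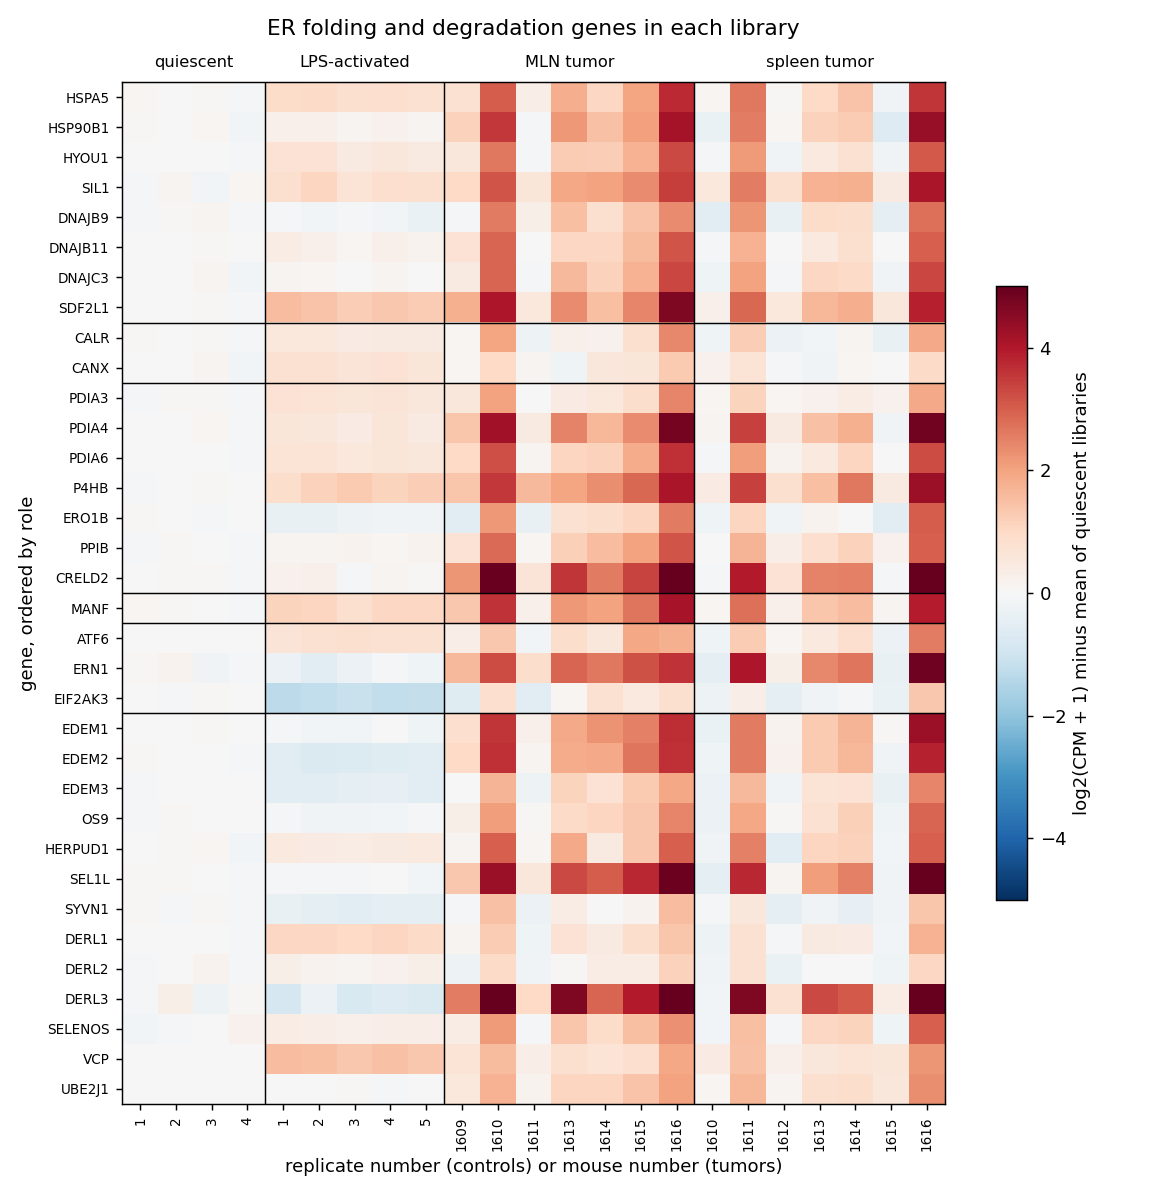
Level of each of the 34 genes in each of the 23 libraries, as log2(CPM + 1) minus the mean of the 4 quiescent libraries; rows are ordered by role, columns by group, and colours saturate at 5 units either way. Both tumors of mouse 1616 are the darkest columns, and the spleen tumors of mice 1610, 1612 and 1615 and the MLN tumor of mouse 1611 are near the quiescent colour.

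Lumenal Hsp70 and Hsp90 chaperones with their helpers rose as a whole against quiescent cells, 8 of 8 with a median log2 change of 1.75. Of all genes, 36.8% were higher, with a median of 0.08. HSPA5 (BiP), the main Hsp70 of the ER, stood at 735, 681, 716 and 651 CPM in quiescent libraries 1 to 4 and at 1327, 1349, 1228, 1248 and 1175 CPM in activated libraries 1 to 5. Its lowest, median and highest values were 884, 2441 and 9144 CPM in MLN tumors and 617, 1398 and 8379 CPM in spleen tumors. All activated libraries were above all quiescent ones, and tumors spread across and far above both. HSPA5 rose by 1.89 ± 0.52 against quiescent cells (edgeR adjusted p = 0.00425) and by 1.09 ± 0.45 against activated cells (0.0456). The latter call was lost without any 1 of the 5 activated libraries, without mouse 1610, 1611 or 1616, and with spleen tumors alone. It was also lost without the filter on low counts, with immunoglobulin genes left out of the scaling and in the mice of low Y-linked level. Limma on log2(CPM + 1) or log2(CPM + 5) did not call it either. With the Y-linked covariate the value turned to -0.25.

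HSP90B1 (GRP94), the Hsp90 of the ER, was at 1114, 1059, 1164 and 995 CPM in quiescent and 1273, 1292, 1194, 1269.7 and 1177 CPM in activated libraries. MLN tumors had a lowest, median and highest value of 1046, 4509 and 19154 CPM and spleen tumors of 690.3, 2407 and 22286 CPM. Activated libraries were all slightly above quiescent ones, and the spleen tumors of mice 1610 and 1615 lay below both. The change was 2.25 ± 0.62 against quiescent (adjusted p = 0.00455) and 2.12 ± 0.56 against activated cells (0.00367). Summed per mouse, all 8 tumor mice were above the quiescent libraries.

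The helpers of HSPA5 differed in how activated cells stood to the other groups. SDF2L1, a lumenal partner of the J proteins, was at 43.9 to 46.5 CPM in quiescent, 108 to 133 in activated and 54.6 to 1187 in tumor libraries. It rose by 2.58 ± 0.57 against quiescent and 1.26 ± 0.49 against activated cells. The latter call was lost without any 1 of the 5 activated libraries, without mouse 1616 and with spleen tumors alone. It was also lost with quantile normalization, with limma on log2(CPM + 1) or log2(CPM + 5), with the Y-linked covariate and in the mice of low Y-linked level. SIL1, which exchanges the nucleotide of HSPA5, rose by 2.20 ± 0.47 and 1.36 ± 0.41 and lay at 10.9 to 13.3 CPM in quiescent and 20.2 to 26.5 CPM in activated libraries. For both, each activated library was above each quiescent one. The J protein DNAJB9 was at 43.8, 48.9, 52.4 and 44.9 CPM in quiescent and 43.7, 43.5, 45.0, 43.5 and 37.1 CPM in activated libraries, which overlapped, and it rose in tumors by 1.22 ± 0.41 and 1.45 ± 0.38. The J proteins DNAJB11 (1.45 ± 0.45 and 1.28 ± 0.41) and DNAJC3 (1.62 ± 0.49 and 1.60 ± 0.45) rose against both control groups. With spleen tumors alone DNAJB11 was not called against activated cells. HYOU1, a large Hsp70 relative, rose against quiescent cells (1.49 ± 0.47) and had a value of 0.97 ± 0.42 against activated cells, which missed the threshold (adjusted p = 0.0536).

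In the main fit the lectin chaperones, which hold glycoproteins by their sugars, were the role with no call in tumors. Both were called higher against quiescent cells with DESeq2, quantile normalization, MLN tumors alone or the Y-linked covariate. The same held without the low immunoglobulin libraries and in the mice of high Y-linked level. Against activated cells CANX was called lower without mouse 1616, with immunoglobulin genes out of the scaling and with the Y-linked covariate. Both were called lower than in activated cells in the mice of low Y-linked level. CALR, calreticulin of the lumen, was at 846, 807, 843 and 769 CPM in quiescent and 1174, 1188, 1079, 1121 and 1125 CPM in activated libraries. Its lowest, median and highest values were 688, 986 and 4275 CPM in MLN and 629, 736 and 3016 CPM in spleen tumors. Activated libraries were all above quiescent ones, and the tumor medians lay between the highest quiescent and lowest activated value in MLN and below all quiescent values in spleen. The changes were 0.72 ± 0.37 against quiescent (adjusted p = 0.0924) and 0.31 ± 0.34 against activated cells (0.44).

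CANX, the membrane-bound calnexin, was at 421, 419, 450.2 and 374 CPM in quiescent and 705, 699, 655, 684 and 635 CPM in activated libraries. MLN tumors had 356, 611 and 1025 CPM as lowest, median and highest, and spleen tumors 369, 446 and 806. Activated and quiescent libraries did not overlap, and tumors overlapped both. CANX rose in activated over quiescent cells by 0.63 ± 0.21 (adjusted p = 0.0159). In tumors the change was 0.35 ± 0.19 against quiescent and -0.29 ± 0.18 against activated cells (adjusted p = 0.119 and 0.162).

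Among 7 enzymes of disulfide bonds and proline turns, 6 rose against quiescent cells, where 36.8% of all genes were higher. CRELD2, a lumenal disulfide protein induced by ER stress, was at 65.7, 69.4, 69.7 and 63.2 CPM in quiescent and 78.2, 79.4, 62.3, 73.8 and 69.3 CPM in activated libraries. Its lowest, median and highest values were 106, 713 and 2911 CPM in MLN and 62.1, 376 and 2536 CPM in spleen tumors. The control groups overlapped each other. All but the spleen tumors of mice 1610 and 1615 lay above them, and every tumor mouse did once its libraries were summed. CRELD2 rose by 3.44 ± 0.68 (adjusted p = 0.000375) and 3.39 ± 0.61 (0.000161).

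P4HB, the isomerase PDI, was at 209.6, 226, 235 and 224 CPM in quiescent and 415, 491, 548, 490.5 and 519 CPM in activated libraries, with 578, 1119.8 and 3834 CPM in MLN and 298, 639 and 4404 CPM in spleen tumors as lowest, median and highest. No tumor library overlapped the quiescent ones, while the spleen tumors of mice 1610, 1612 and 1615 lay below all activated ones. It rose by 2.55 ± 0.50 against quiescent (adjusted p = 0.000395) and 1.47 ± 0.43 against activated cells (0.00745). PDIA4 rose by 2.78 ± 0.68 and 2.32 ± 0.60, and PDIA6 by 1.74 ± 0.50 and 1.19 ± 0.44, all called. The call of PDIA6 against activated cells was lost without activated library 3, 4 or 5 and with spleen tumors alone. It was also lost with limma on log2(CPM + 1) or log2(CPM + 5), with the Y-linked covariate and in the mice of low Y-linked level. PDIA3, the isomerase that works with the lectin chaperones, rose by 0.88 ± 0.32 against quiescent cells (not called without quiescent library 1 or 4 or with spleen tumors alone) and had 0.30 ± 0.29 against activated cells, which did not pass (0.374).

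PPIB, a cyclophilin that turns proline bonds, was at 185 to 197 CPM in quiescent and 206 to 218 in activated libraries and rose by 1.55 ± 0.40 and 1.46 ± 0.37. ERO1B, an oxidase that recharges the isomerases, was at 230.2 to 255 CPM in quiescent, 189 to 219 in activated and 164 to 2019 in tumor libraries. It rose against activated cells (1.33 ± 0.46, adjusted p = 0.0182) and did not pass against quiescent cells (1.00 ± 0.49, 0.0792). MANF, a secreted factor released on ER stress, was at 105, 100.5, 95.3 and 89.9 CPM in quiescent, 212, 208, 169, 199 and 202 CPM in activated libraries, 117, 437 and 1719 CPM in MLN and 103, 259.5 and 1514 CPM in spleen tumors (lowest, median and highest). It rose by 2.30 ± 0.53 and 1.35 ± 0.46, and also lay higher in each activated than in each quiescent library.

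Of the 3 sensors, ERN1 and ATF6 rose against quiescent cells and ERN1 and EIF2AK3 against activated cells. ERN1 was at 21.5, 22.9, 17.9 and 19.6 CPM in quiescent and 16.5, 14, 16.4, 18.9 and 17.4 CPM in activated libraries, and at 38.4, 161 and 261 CPM in MLN and 14.4, 112 and 630.1 CPM in spleen tumors (lowest, median and highest). Only the spleen tumors of mice 1610 and 1615 overlapped the controls. ERN1 rose by 2.77 ± 0.54 against quiescent (adjusted p = 0.000361) and 3.13 ± 0.50 against activated cells (5.48e-05), and was 1 of the 4 genes called against activated cells with the Y-linked covariate.

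EIF2AK3 was lower in every activated library than in any other. It was at 132, 124, 135 and 132 CPM in quiescent and 52.6, 54.9, 59.2, 54.6 and 56.8 CPM in activated libraries, with 86.8, 182 and 235 CPM in MLN and 94.4, 116 and 331 CPM in spleen tumors. No activated library overlapped a quiescent or tumor library, while tumors lay on both sides of quiescent cells. EIF2AK3 fell by 1.30 on the log2 scale in activated cells (SE 0.24, adjusted p = 0.000224) and rose by 1.42 ± 0.22 in tumors over activated cells (3.34e-05). Its change against quiescent cells was 0.12 ± 0.22 (0.63). ATF6 was at 136, 139, 138 and 138 CPM in quiescent and 217, 233, 243, 236 and 234 CPM in activated libraries, and at 124, 252 and 526 CPM in MLN and 113, 192 and 823 CPM in spleen tumors. It rose by 0.92 ± 0.30 against quiescent cells (0.0117), and the value against activated cells, which lay above all quiescent libraries, was 0.23 ± 0.27 (0.467).

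**Figure D3:**
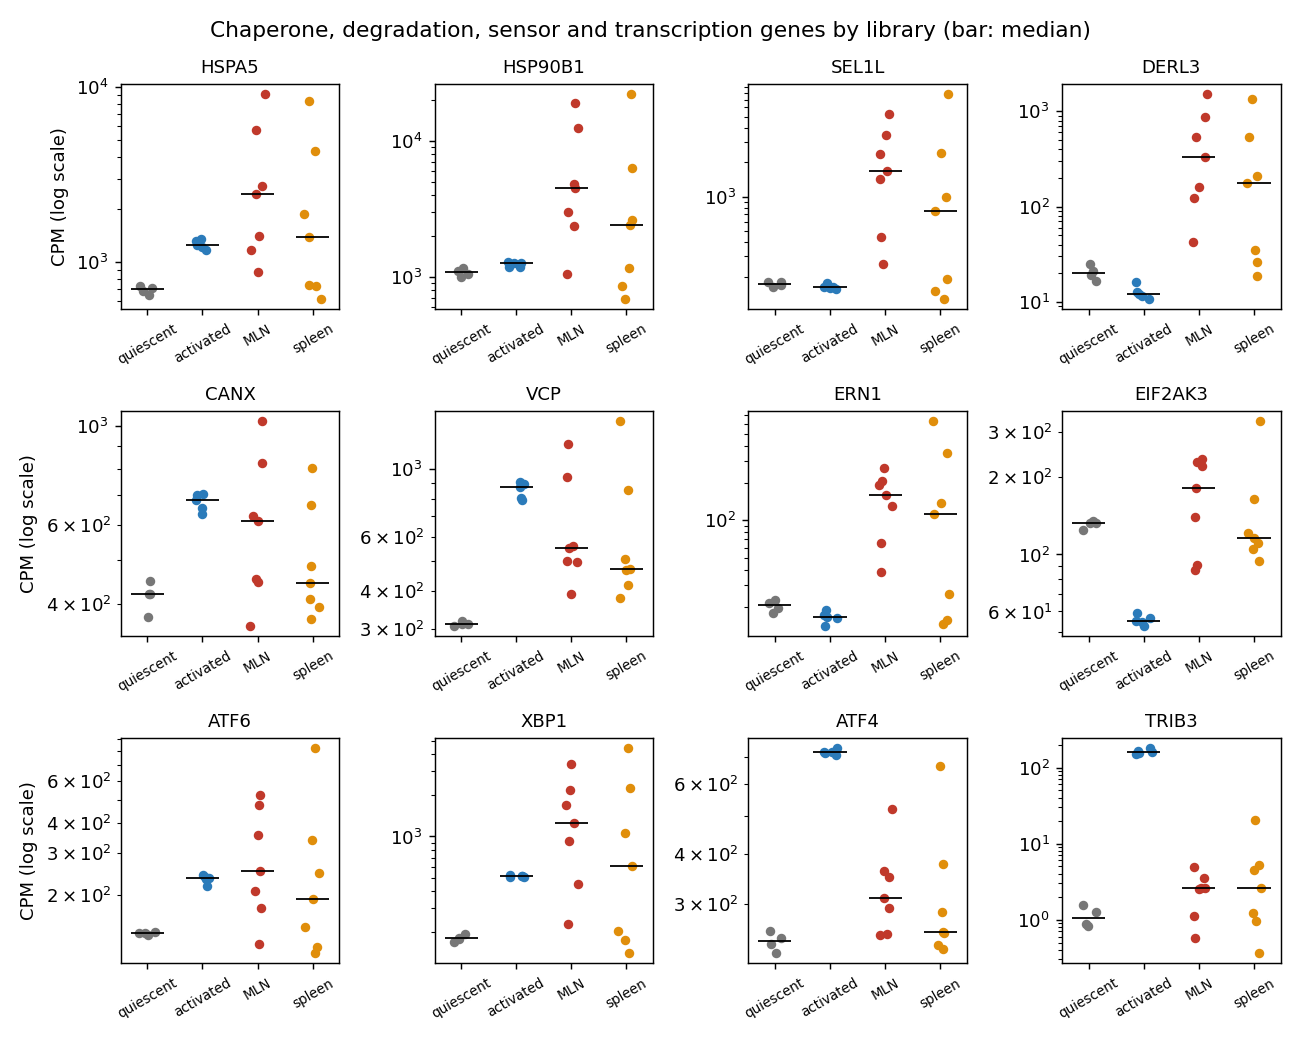
CPM on log axes of 12 genes in each library (points) with the group median (bars): 4 quiescent, 5 activated, 7 MLN and 7 spleen tumor libraries. EIF2AK3 is lowest and VCP, ATF4 and TRIB3 are highest in activated cells by the median, while ERN1, SEL1L and DERL3 are highest in tumors.

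Degradation genes included both the largest changes and several of the smallest, with 11 of 13 higher against quiescent cells, where 36.8% of all genes were higher. DERL3, a derlin of the retrotranslocation channel, was at 19.1, 25.2, 16.8 and 21.1 CPM in quiescent and 10.8, 16.4, 11.5, 12.6 and 12.1 CPM in activated libraries. Its lowest, median and highest values were 42.1, 333 and 1522 CPM in MLN and 18.5, 179 and 1334 CPM in spleen tumors. The spleen tumor of mouse 1610 lay within the quiescent range and the other 13 tumors above all control libraries. DERL3 rose by 4.13 ± 0.79 (adjusted p = 0.000309) and 4.89 ± 0.75 (3.49e-05). Its paralogs DERL1 and DERL2 differed. DERL1 changed by 0.54 ± 0.22 against quiescent cells (edgeR adjusted p = 0.0385). That call was lost without any 1 of the 4 quiescent libraries, with spleen tumors alone and with limma on log2(CPM + 1) or log2(CPM + 5). Against activated cells DERL1 had -0.41 ± 0.20, which did not pass. It was called lower there with either limma fit, with immunoglobulin genes out of the scaling, without mouse 1616 and in the mice of low Y-linked level. DERL2 had 0.22 ± 0.20 and 0.07 ± 0.19, neither called. DERL1 was at 139.7 to 146 CPM in quiescent and 281 to 300.0 CPM in activated libraries.

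SEL1L and SYVN1 form 1 complex, in which SYVN1 (HRD1) is the ubiquitin ligase and SEL1L its membrane partner. SEL1L was at 181, 179, 169 and 163 CPM in quiescent and 159, 163, 162, 176 and 157 CPM in activated libraries, with 259.6, 1689 and 5229 CPM in MLN and 128, 747 and 7884 CPM in spleen tumors. Only the spleen tumors of mice 1610 and 1615 lay below the controls. SEL1L rose by 3.23 ± 0.71 (adjusted p = 0.000856) and 3.37 ± 0.65 (0.000267). SYVN1 was at 437, 403, 434 and 398 CPM in quiescent and 319, 298, 279.9, 308 and 302 CPM in activated libraries, and at 341, 474 and 1226 CPM in MLN and 307, 371 and 1091 CPM in spleen tumors. Activated libraries all lay below quiescent ones, and tumors overlapped quiescent cells on both sides. SYVN1 rose against activated cells (0.86 ± 0.26, 0.0093) and did not pass against quiescent cells (0.32 ± 0.28, 0.313). HERPUD1, which helps to assemble that complex, rose by 1.5 ± 0.48 and 1.14 ± 0.43; its call against activated cells was lost in the same settings as that of SDF2L1.

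The genes that pick out misfolded glycoproteins, EDEM1, EDEM2 and EDEM3 (trimming of mannose) and OS9 (a lectin of the SEL1L complex), rose in both comparisons. EDEM1 rose by 2.19 ± 0.54 and 2.36 ± 0.50, EDEM2 by 2.11 ± 0.49 and 2.81 ± 0.46, EDEM3 by 0.88 ± 0.32 and 1.46 ± 0.30, and OS9 by 1.19 ± 0.37 and 1.39 ± 0.35. The call of EDEM3 against quiescent cells was lost without quiescent library 1 and with spleen tumors alone. EDEM2 was at 88.9, 87.3, 83.2 and 80.9 CPM in quiescent and 56.7, 51.3, 51.9, 55.3 and 59.0 CPM in activated libraries, and at 92.3, 322 and 1077 CPM in MLN and 72.5, 210.3 and 1227 CPM in spleen tumors. For EDEM2 each activated library lay below each quiescent one, and no tumor library overlapped the activated ones.

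At the cytosolic end, VCP, the ATPase that pulls proteins out of the membrane, was highest in activated cells by the median. It was at 307, 319, 312 and 312 CPM in quiescent and 904, 890.5, 794, 876 and 802 CPM in activated libraries, with 390.5, 550.0 and 1201 CPM in MLN and 378, 471 and 1431 CPM in spleen tumors. Every tumor library lay above every quiescent one, and 10 of the 14 lay below every activated one. VCP rose by 1.38 ± 0.27 in activated cells (adjusted p = 0.000352) and by 0.95 ± 0.25 in tumors (0.00334), both against quiescent cells. Its value in tumors against activated cells was -0.44 ± 0.22 (0.0934). VCP was called lower there with limma on log2(CPM + 1) or log2(CPM + 5), quantile normalization, or immunoglobulin genes out of the scaling. The same held without mouse 1616, with the Y-linked covariate and in the mice of low Y-linked level. UBE2J1, the membrane-anchored ubiquitin-conjugating enzyme, lay at 115 to 119 CPM in quiescent and 113 to 121 in activated libraries and rose by 1.05 ± 0.26 and 1.12 ± 0.24. SELENOS, a selenoprotein that ties VCP to the derlins, rose by 1.19 ± 0.37 and 0.95 ± 0.34.

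Genes of the transcription side were mostly higher in activated than in quiescent cells. Of 17 tested genes of a companion list for unfolded protein response transcription and the PERK-ATF4 arm, 9 were higher and 0 lower in tumors than in quiescent cells, 6 higher and 8 lower in tumors than in activated cells, and 11 higher and 2 lower in activated than in quiescent cells. In the same order the shares of all genes were 36.8% higher and 31.9% lower, 36.1% and 27.0%, and 25.4% and 34.1%. XBP1 was at 178, 182, 194 and 169 CPM in quiescent and 514, 511, 503, 504 and 522 CPM in activated libraries, and at 228, 1254 and 3416 CPM in MLN and 139.8, 606 and 4429.9 CPM in spleen tumors. It rose by 2.67 ± 0.57 in tumors (adjusted p = 0.000745) and 1.43 ± 0.57 in activated cells (0.0378) over quiescent cells. These values are gene totals and do not separate spliced from unspliced XBP1 mRNA.

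ATF4 was at 239, 247, 257 and 226 CPM in quiescent and 719, 721, 738, 711 and 723 CPM in activated libraries, with 251, 312 and 521 CPM in MLN and 232, 255 and 666 CPM in spleen tumors. All 14 tumor libraries lay below the activated ones. ATF4 rose by 1.51 ± 0.17 in activated over quiescent cells (adjusted p = 1.45e-06) and was lower in tumors than in activated cells, by -1.17 ± 0.14 (2.54e-06). Against quiescent cells its value in tumors was 0.34 ± 0.15, which did not pass (0.0574). DDIT3 (CHOP), a factor downstream of ATF4, was at 15.5 to 18.6 CPM in quiescent, 33.5 to 36.2 in activated and 9.19 to 26.5 in tumor libraries. Its log2 changes were 0.95 ± 0.24 in activated over quiescent cells, -1.13 ± 0.20 in tumors over activated cells and -0.18 ± 0.21 in tumors over quiescent cells, the last not called.

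The largest rises of the companion genes in activated over quiescent cells were those of CHAC1, a glutathione-degrading enzyme (7.51 ± 1.07), the pseudokinase TRIB3 (7.12 ± 0.82) and the factor ATF3 (4.89 ± 0.79), which are known targets of ATF4. TRIB3 was at 0.872, 0.824, 1.25 and 1.56 CPM in quiescent and 166, 152, 179, 159 and 157 CPM in activated libraries, and at 0.570, 2.61 and 4.97 CPM in MLN and 0.362, 2.62 and 20.3 CPM in spleen tumors. Tumors lay near the quiescent level or up to 20.3 CPM, all far below activated cells. In tumors against activated cells TRIB3 (-5.65 ± 0.55), CHAC1 (-2.80 ± 0.61) and ATF5 (-1.91 ± 0.55) were lower. Against quiescent cells CHAC1 rose by 4.71 ± 0.97 in tumors, where it was at 0.298 to 57.0 CPM against 0.165 to 0.706 CPM. The factor CREB3 was lower in activated than in quiescent cells (-0.86 ± 0.19).

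Of 24 further ER folding and degradation genes that were not members, 13 were higher and 5 lower in tumors than in quiescent cells, with a median log2 change of 0.59. Against activated cells 12 were higher and 2 lower, and in activated against quiescent cells 2 were higher and 3 lower. Of all genes, 36.8% were higher and 31.9% lower in the first comparison, 36.1% and 27.0% in the second, and 25.4% and 34.1% in the third. The disulfide isomerase PDIA5 rose by 4.59 ± 0.74 and 5.97 ± 0.73 in tumors, from 0.273 to 0.815 CPM in quiescent and 0.155 to 0.336 CPM in activated libraries to 1.97 to 84.6 CPM in tumor libraries. The prolyl isomerases FKBP11 (4.39 ± 0.73 and 5.76 ± 0.72) and FKBP14 (2.80 ± 0.61 and 4.04 ± 0.60) rose as well. Lower in tumors than in quiescent cells were the thioredoxin-like TXNDC16 (-1.07 ± 0.27), the ER ubiquitin ligase RNF139 (-0.54 ± 0.07) and HERPUD2, a relative of HERPUD1 (-0.32 ± 0.10). TXNDC16 and RNF139 were also lower in activated than in quiescent cells (-1.48 ± 0.31 and -0.77 ± 0.08).

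Genes with the ERSE in their promoter, listed by sequence above, had medians near those of the genes without it; no test was made. The 10 had a median log2 change of 1.68 against quiescent cells, from 0.32 for SYVN1 to 4.13 for DERL3, and the 19 members with an entry and without the element had 1.45, from 0.12 to 3.23. Against activated cells the medians were 1.26 and 1.42. Among the genes with the element are HSPA5 and CRELD2, which rose, and CANX and CALR, which did not pass.

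Between the 14 tumor libraries, members differed far more than between control libraries. The highest over the lowest tumor value ranged from 2.81-fold for DERL2 to 82.2-fold for DERL3, with a median of 11.5, and exceeded 10-fold for 19 genes. Within quiescent libraries this ratio reached at most 1.5-fold, and within activated libraries at most 1.52-fold. Mouse 1616 held the highest tumor value for all 34 genes, 14 in its MLN and 20 in its spleen tumor. The lowest value was found in the spleen tumor of mouse 1610 for 17 genes and in that of mouse 1615 for 8.

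No member was called between MLN and spleen tumors. edgeR called 0 of the 34 members and 0.0% of all genes between the sites, at an unadjusted p under 0.05 the members counted 0 in each direction and all genes 196 higher and 315 lower in MLN, and DESeq2 called 16 higher and 4 lower genes and 0 members. Blocking on the mouse in the 6 pairs, the counts were also 0. The median log2 difference of the members was 0.27 and moved with single libraries: it was 0.54 with the mouse as replicate block, 0.04 without the MLN and 0.93 without the spleen tumor of mouse 1616, and 0.12 to 0.14 without the MLN tumor of mouse 1610 or the spleen tumor of mouse 1610, 1612 or 1615. For HSPA5 it was 0.34 ± 0.69 (SE).

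Within single mice the sites differed, with values in opposite directions. In mice 1610 and 1615 all 34 genes were higher in the MLN tumor, with median log2 differences of 2.88 and 1.88. In mouse 1611 all 34 were higher in the spleen tumor, with a median of -1.91 for MLN minus spleen. Mouse 1613 had 33 of 34 higher in MLN (median 0.55), mouse 1614 had 21 (0.11) and mouse 1616 had 14 (-0.11). The share of counts in the 34 genes was 4.37% in MLN and 0.79% in spleen for mouse 1610, 2.75% and 0.767% for mouse 1615, and 0.904% and 3.47% for mouse 1611. No test was made within a pair, which has 1 library per site, and these counts were not set against all genes.

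B cell and plasma cell markers moved with the ER genes in mice 1610, 1615 and 1611, and B cell markers did not in mice 1613 and 1614. The summed B cell markers were at 939 CPM in MLN and 9315 CPM in spleen for mouse 1610, at 769 and 8255 CPM for mouse 1615, and at 7415 and 142 CPM for mouse 1611. The summed plasma cell markers, which include XBP1, were at 10753 and 600.4 CPM, 7783 and 834 CPM, and 919.7 and 5235 CPM in the same order. In each of these 3 mice the tumor with more ER gene RNA had more plasma cell and less B cell marker RNA. In mice 1613 and 1614 the MLN tumor had more of both. For mouse 1613 B cell markers were at 5900 CPM in MLN and 5539 in spleen, and plasma cell markers at 6250 and 4067. For mouse 1614 they were at 5308 and 887 CPM, and at 4875 and 3255. The share of counts in the 34 genes was 2.28% and 1.43% for mouse 1613 and 1.88% and 1.85% for mouse 1614. In mouse 1616 both tumors were low in B cell markers (1148 and 284 CPM) and high in plasma cell markers (13181 and 12716 CPM). The part of cell makeup in these differences was not tested.

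**Figure D4:**
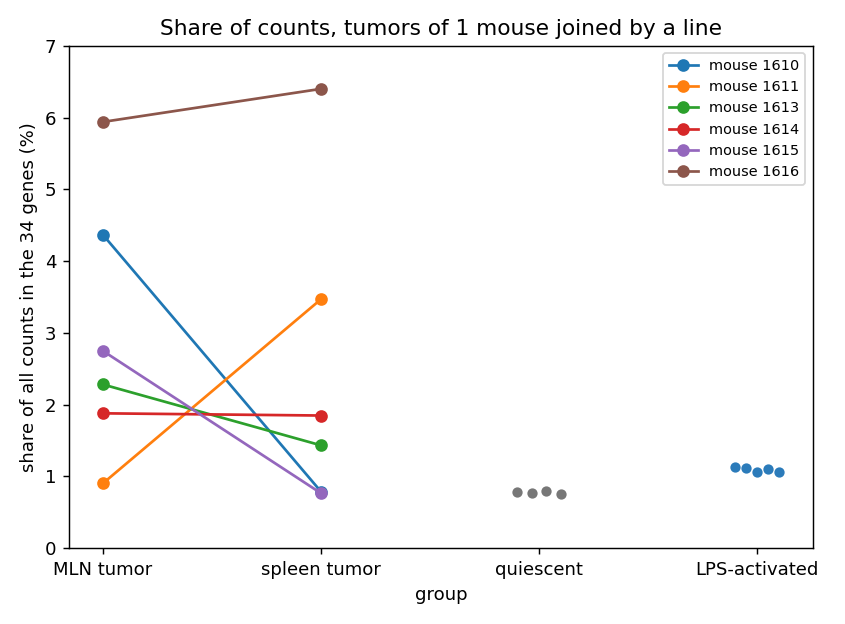
Share of all counts in the 34 genes, in percent from 0; lines join the MLN and spleen tumor of each of 6 mice, and points show the 4 quiescent and 5 activated libraries. The lines of mice 1610 and 1615 fall and that of mouse 1611 climbs from MLN to spleen, while both tumors of mouse 1616 lie at 5.94% and 6.40%.

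Across the 8 tumor mice, with both libraries of a mouse summed, the members followed XBP1. On log2(CPM + 1) values, Pearson's r with XBP1 ranged from 0.82 (PDIA3) to 0.98 (SEL1L), with a median of 0.93, against a median of -0.05 over the 11632 genes tested besides XBP1. In an exact 2-sided permutation test with Benjamini-Hochberg adjustment over all of those genes, which was added after seeing the data, 28 of the 34 passed, where 9.04% of all genes passed with a positive r. At an unadjusted p under 0.05 the counts were 34 of 34 members and 18.7% of all genes. For P4HB, r was 0.98 (exact permutation p = 4.96e-05, adjusted 0.00995) and rho was 0.98 (exact permutation p = 0.000397). For HSPA5, r was 0.95 (exact permutation p = 0.00119, adjusted 0.0226) and rho 0.79 (exact permutation p = 0.0279). The calls were lost without mice 1616 and 1612, the highest and lowest in XBP1. Without them the median r was 0.62, from 0.10 for PDIA3 to 0.94 for OS9, and 0 of 34 passed over the 6 remaining mice, with adjustment over the members (5 at an unadjusted exact permutation p under 0.05). With 6 mice there are fewer pairings to permute and a narrower range of XBP1. The lost calls therefore do not show that the relation is absent among these mice. XBP1 is itself 1 of the plasma cell markers above, and the part of cell makeup in this relation was not tested.

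**Figure D5:**
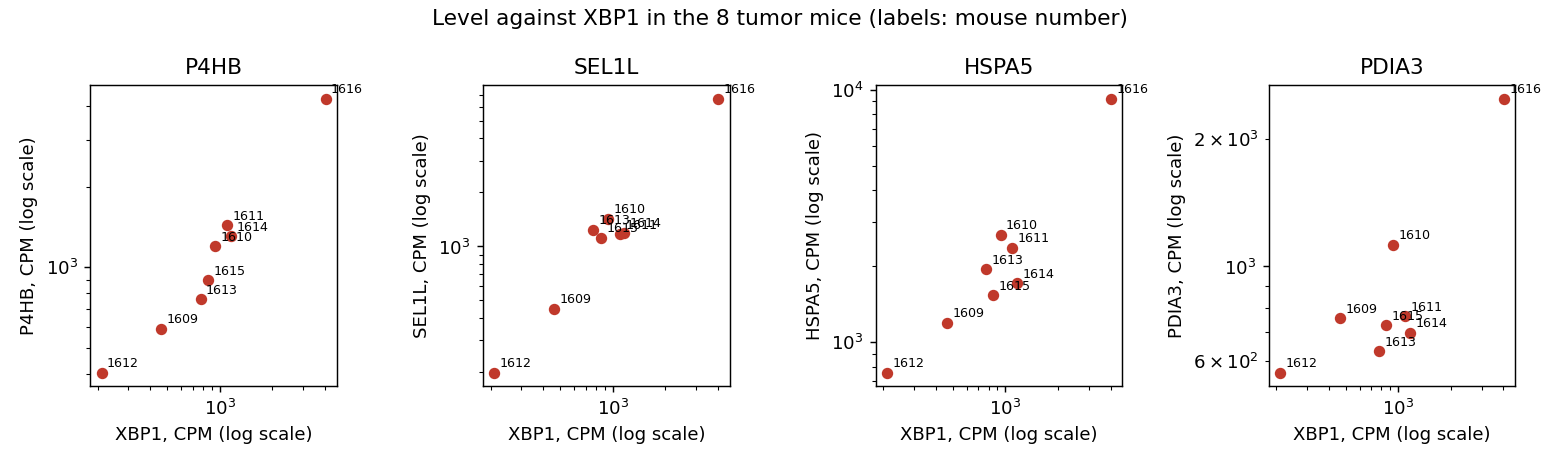
Level of P4HB, SEL1L, HSPA5 and PDIA3 against XBP1, both in CPM on log axes, in the 8 tumor mice, labelled by mouse number. Mouse 1616 is highest and mouse 1612 lowest in XBP1 in each panel, and the 6 mice between them lie closer together.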

How the data were processed

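RNA of 23 mouse libraries was read from 1 deposited table. The authors' file name says TPM, but the values behave as estimated counts: they differ in total between libraries and reach 25045814. Per the submitters' processing notes, Trim Galore 0.4.0, DESeq2 and the build GRCm39 were used; no quantifier is given in the sources used here. The table gives gene names in capitals. Of 61651 entries, 21282 had a name and values, 17047 were above 0, and they gave 15881 profiles. Counts were rounded, both tumors of a mouse were summed (8 mice), and the 11633 genes that reached 1 CPM in 4 libraries entered edgeR 4.0.16 (TMM scaling, quasi-likelihood, Benjamini-Hochberg at 0.05) in R 4.3.3, in 1 fit with both control groups. MLN and spleen tumors were compared in a fit by library. DESeq2 1.42.0 and limma 3.58.1 served as alternatives. The SE of a log2 change is the change over the square root of F, which is approximate. The method was tested on simulated data drawn with the same spread in every group. Tumors here spread far more than controls, so that test does not cover this difference. Tumor pairing comes from the series' design text, where 1 number marks 1 mouse; the correlations of paired deviations were -0.202, -0.357, 0.407, -0.293, -0.49 and 0.722 for mice 1610, 1611, 1613, 1614, 1615 and 1616. Members, companion lists and markers were chosen with earlier results of these data known. All members could be named; of the companion genes, ranked over both lists, XBP1, ATF4 and DDIT3 and the 3 called genes of largest change in each direction of each comparison were named, and FKBP14 against quiescent cells was added after its values were seen. MYC and SDC1 check the labels.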

Additional observations from a re-analysis of the deposited data

Results flagged for a closer look

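Of 136 groups of 4 to 7 libraries (34 genes in 4 groups), 22 held a library far from the others by Dixon's 95% limit, which chance passes in about 1 in 20 groups. In 20 genes this was the spleen tumor of mouse 1616, high among the 7 spleen tumors, so these are 20 readings of 1 library. Among chaperones and folding enzymes it stood at 22286 CPM for HSP90B1 (next highest 6315), 1897 for PDIA3, 5278 for PDIA4, 2786 for PDIA6, 1101 for DNAJB11, 1369 for DNAJC3, 2536 for CRELD2, 2019 for ERO1B, 219 for SIL1 and 1499 for PPIB. Among degradation genes it stood at 4303 CPM for EDEM1, 1227 for EDEM2, 7884 for SEL1L (next highest 2383), 1091 for SYVN1, 477 for DERL1, 1334 for DERL3 and 421 for SELENOS. MANF was at 1514 CPM there, and the sensors ATF6 and EIF2AK3 at 823 and 331 CPM. In the MLN tumor of the same mouse no gene passed that limit. The other flags were small: DNAJB9 was at 37.1 CPM in activated library 5 (next lowest 43.5), and UBE2J1 at 115 CPM in quiescent library 4 (next lowest 118.9).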

How the results depend on the processing

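Leaving out each mouse or control library in turn gave 25 to 29 members higher and 0 lower against quiescent cells, 22 to 27 higher and 0 to 3 lower against activated cells, 3 higher and 1 lower in activated against quiescent cells, and 0 between sites; the 3 lower members appeared without mouse 1616. Against activated cells, members lower counted 2 with limma on log2(CPM + 1) and 2 with log2(CPM + 5), 1 with quantile normalization and 3 with immunoglobulin genes left out of the scaling. With the Y-linked level as covariate 4 were higher and 2 lower, where 3133 of all genes were higher and 2224 lower. In the mice of low Y-linked level 7 were lower, with 4100 of all genes. Quantile normalization gave 2816 of all genes higher against quiescent and 2527 against activated cells. In activated against quiescent cells, members higher counted 6 with DESeq2, 5 with limma on log2(CPM + 1), 9 with quantile normalization and 6 with immunoglobulin genes left out of the scaling. A fit of the control libraries alone gave 20 higher and 7 lower, and those numbered 1 to 4 alone 20 and 8. With the replicate number as a block in these the counts were 20 and 6; the labels do not say that the numbers pair control libraries, and same-numbered libraries had correlations of -0.0174 to 0.0031 in their deviations. With the mouse as replicate block, 0 members were called between sites, and DESeq2 called 16 genes higher and 4 lower there. The count of members that followed XBP1, adjusted as designed over the 34 genes, was 34, and 0 without mice 1616 and 1612.

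Against activated cells 31 of the 34 values were above 0, against 21 with the Y-linked covariate and 26 in the mice of low Y-linked level. Counting those called in at least 1 of the fits compared, values turned in sign with the Y-linked covariate for DNAJB11 (-0.0509), HSPA5 (-0.25), MANF (-0.0748), PDIA6 (-0.40) and SDF2L1 (-0.31), and in the mice of low Y-linked level for ATF6 (-0.30), CALR (-0.56), DERL2 (-0.32) and PDIA3 (-0.43); the cause was not tested. Of all single-gene values under alternatives, 2934 stayed on their side of the threshold, 133 newly passed it, 86 no longer passed and 9 reversed. The fits of control libraries alone and of mice by Y-linked level, and the XBP1 test over all genes, were chosen after seeing the data. The lowest value of any member in any library was 10.8 CPM, so depth limits mainly companion genes near 1 CPM in quiescent cells, such as TRIB3, CHAC1 and PDIA5.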
